A study of Mus musculus with 5 samples.

Results

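The genes described are 10 genes for immune checkpoint and costimulatory proteins of macrophages, namely Cd274 (PD-L1), Pdcd1lg2 (PD-L2), Cd80, Cd86, Cd40, Icosl, Cd276, Cd47, Sirpa and Lgals9. They were taken by symbol, and all 10 were found among the 24419 gene rows of the table. The RNA came from mouse bone marrow-derived macrophages (BMMs) of the C57BL/6 strain, given as C57BL6/J in the design text. Bone marrow cells were grown for 5 days in 50 ng/ml M-CSF, a growth factor that drives macrophage differentiation, and all samples were then stimulated with 100 ng/ml LPS. The PBS group had 2 samples kept for 18 h with PBS, and the Sema3G group had 3 samples kept as long with 100 ng/ml recombinant Sema3G, a secreted semaphorin. The recombinant protein was purified on Protein G from the supernatant of 293T cells, a human embryonic kidney line, and the control was PBS alone, so that an effect of Sema3G and an effect of anything that came with the preparation cannot be told apart. Whether the samples came from separate animals or cultures is not stated in the sources used here, and the p-values below measure only the spread between these samples, which may be technical. In bulk RNA of this kind, fewer cells of a type and less RNA per cell cannot be told apart.

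A macrophage that presents antigen to a T cell also shows it a second signal. Members of the B7 family, to which CD80, CD86, PD-L1, PD-L2, ICOSL and CD276 belong, carry that signal. CD80 and CD86 stimulate through CD28 and restrain through CTLA-4, PD-L1 and PD-L2 restrain through PD-1, and ICOSL stimulates through ICOS. CD40 is the receptor through which a T cell activates the macrophage in return. CD47 and SIRPA act between cells that may be engulfed and the phagocyte, since CD47 on the target cell binds SIRPA on the macrophage and holds back phagocytosis. Galectin-9, the product of Lgals9, binds TIM-3 on T cells. In macrophages, PD-L1 and the CD28 ligands are known as genes that LPS and interferons can induce.

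Each library held between 1798469 and 2215855 unique molecular identifiers (UMIs). Listed genes took 77.6% and 75.6% of them under PBS and less, 71.3%, 67.1% and 65.9%, under Sema3G, and the part of this in the results below was not tested. A UMI marks 1 captured RNA molecule, and levels are given in CPM, the UMI count scaled to a fixed library total. The kit captures the 3′ end of each RNA, so that the count of a gene does not grow with its length and CPM can be set side by side between genes. In the 5 libraries 3 counts, the limit that a count of 0 allows, were worth 1.35 to 1.67 CPM. These limits and the counting intervals below cover counting error only. Rn45s, the precursor of ribosomal RNA, took 1.01% and 3.19% with PBS and 6.31%, 7.40% and 7.88% with Sema3G of the total to which CPM is scaled. Of 8 macrophage markers looked up, 7 (Csf1r, Adgre1, Cd68, Itgam, Fcgr1, Lyz2 and Cd14) were above the limit of 3 counts in every library, and Mertk had 2 and 0 UMIs under PBS, against 5, 4 and 5 under Sema3G. The 8 markers had a summed level of 9761 to 12570 CPM with PBS and 8860 to 9518 CPM with Sema3G. The 8 dendritic cell markers summed to 0.549 to 2.14 CPM with PBS and 0 to 2.26 CPM with Sema3G, and 4 of them were at 0 in every library.

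The 10 genes covered a wide range of levels. In the PBS libraries Sirpa was the most abundant, followed by Cd47, Lgals9 and Cd274, and the ranges of these genes did not overlap. Cd40, Icosl and Cd86 followed at mean levels between 5.44 and 9.26 CPM, with ranges that overlapped between neighbours. Cd276 and Cd80 were lower still and overlapped, and Pdcd1lg2 was last. With Sema3G, Cd274 stood above Lgals9, behind Sirpa and Cd47, at a mean of 153 CPM, but its range overlapped that of Lgals9 at a mean of 102 CPM. Among all tested genes, ranked by mean level, Sirpa lay at percentile 99.2 and Cd47 at 98.0, while Cd80 and Cd276 lay at percentiles 16.5 and 16.2.

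**Figure D1:**
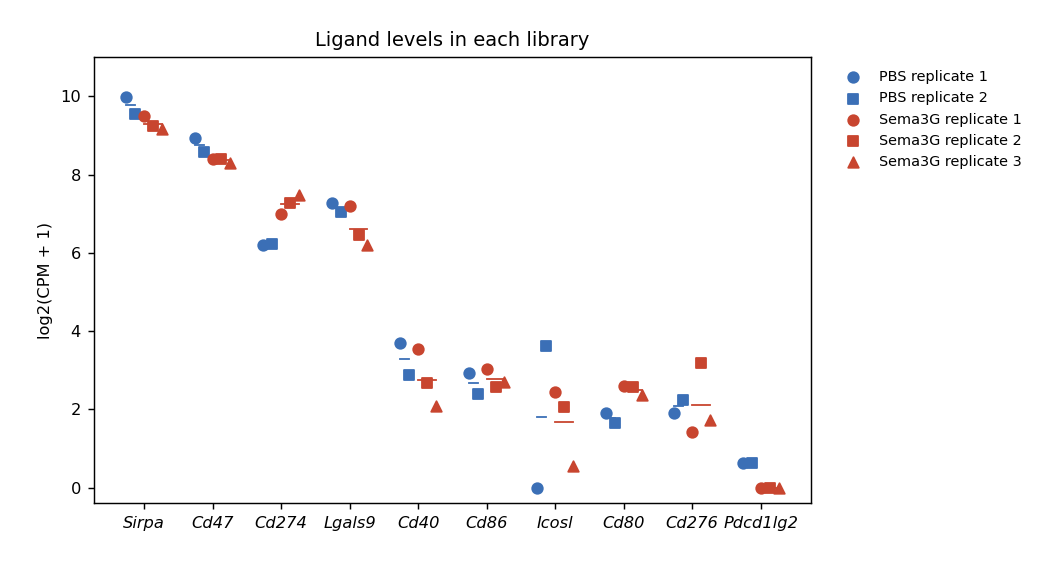
Level of each of the 10 genes in each of the 5 libraries, as log2(CPM + 1) on the vertical axis, with blue symbols for PBS, red symbols for Sema3G and short lines for the group means of these log values. The red symbols of Cd274 all lie above its blue symbols, as do those of the sparse gene Cd80. In CPM as deposited those of Sirpa and Cd47 lie below theirs, and those of Lgals9, Cd40, Cd86, Icosl and Cd276 overlap with them. Pdcd1lg2 had 1 UMI in each PBS library and 0 in each Sema3G library.

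Of the 10 genes, 9 reached the filter of 1 CPM on average and were tested, with limma on log2(CPM + 1) and Benjamini-Hochberg adjustment over 10088 genes. Cd274 was the gene of the set that passed an adjusted p of 0.05, and it was higher with Sema3G. Over all tested genes 1.8% passed, 1.59% as higher and 0.218% as lower, or 160 and 22 genes, where scaling by TMM factors gave 347 and 3. None of the 9 was called lower. An unadjusted p under 0.05 from limma was found for 3 of them, against 21.1% of all tested genes. These were Cd274, which was higher with Sema3G, and Sirpa and Lgals9, which were lower. The quasi-likelihood test of edgeR and DESeq2, both run on UMI counts recovered from the CPM, also called Cd274 and no other gene of the set for which they gave an adjusted p. Their filters on low counts left edgeR without one for Cd80, Icosl and Cd276, and DESeq2 without one for these and Cd86. All 3 Sema3G libraries lay above both PBS libraries for 2 of the 9 genes (Cd274 and Cd80), against 11.9% of all tested genes. They lay below both for another 2 (Cd47 and Sirpa), against 26.5%, in CPM as deposited. The median log2 fold change was -0.12 over the 9 genes and -0.22 over all tested genes, of which 67.5% were below 0. With TMM scaling these medians were 0.046 and -0.023, so that a sign near 0 depends on the scaling. Because 1 is added before the logarithm, fold changes of genes at a few CPM come out smaller than their CPM ratios.

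**Figure D2:**
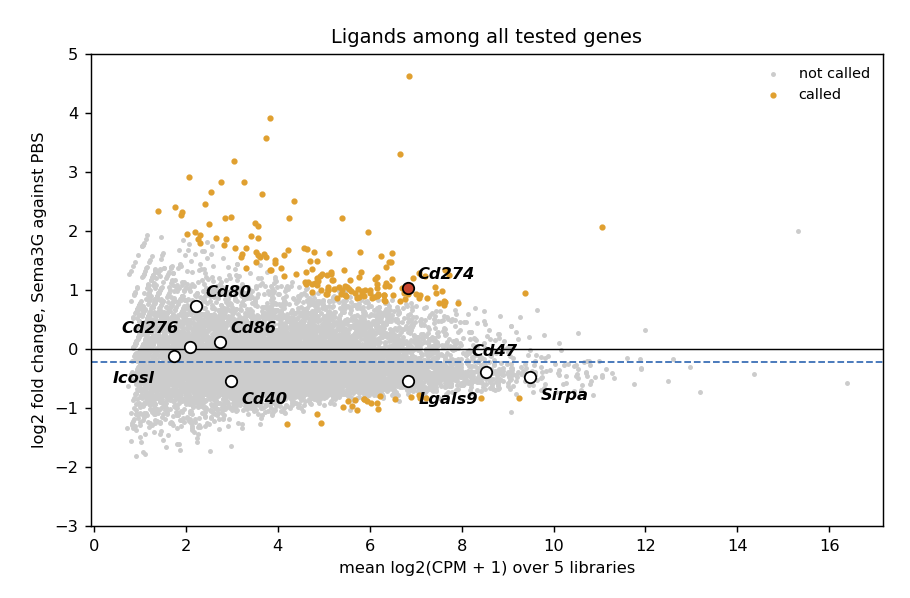
Log2 fold change of Sema3G against PBS on the vertical axis against the mean log2(CPM + 1) over the 5 libraries on the horizontal axis, for the 10088 tested genes (orange, past the adjusted p; grey, not past it), with the 9 tested genes of the set as large circles and the median of all genes, -0.22, as a dashed line. Cd274, in red, lies at 1.04 among the called genes, and the other 8 circles lie among the uncalled ones.

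Cd274 was higher in every Sema3G library than in either PBS library. It encodes PD-L1, the ligand by which macrophages restrain T cells that carry PD-1. Cd274 had 133 and 137 UMIs under PBS, against 227, 342 and 388 under Sema3G. These counts correspond to 73.1 and 73.3 CPM with PBS and to 126, 154 and 179 CPM with Sema3G. The PBS libraries were nearly equal, at a ratio of 0.996 with a counting interval of 0.779 to 1.27, whereas the Sema3G libraries differed among themselves. Replicate 3 was 1.42 times replicate 1 (counting interval 1.20 to 1.68) and 1.16 times replicate 2 (counting interval 0.999 to 1.34). The mean rose from 73.2 ± 0.189 CPM (SD, n = 2) to 153 ± 26.3 CPM (SD, n = 3). The log2 fold change was 1.04 with a standard error of 0.20 and a 95% interval of 0.63 to 1.45, or 2.06-fold with an interval of 1.55 to 2.73 (adjusted p = 0.0106 from limma). Counted from the median of all genes the difference was 1.27 on the log2 scale. By size, 106 of the called genes had a larger log2 fold change than Cd274, and by adjusted p 42 genes had a smaller one.

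The call for Cd274 was lost without Sema3G replicate 2 or replicate 3. Without Sema3G replicate 2 its adjusted p from limma was 0.0890, and without Sema3G replicate 3 it was 0.109, with log2 fold changes of 1.03 and 0.92. Sema3G replicates 2 and 3 were the most alike of all pairs of libraries, and with both summed into 1 library the log2 fold change was 0.98 and the adjusted p from limma 0.147. The levels of Cd274 and the share of Rn45s moved together across the groups. With the Rn45s share as a covariate the log2 fold change of Cd274 was 0.48 (adjusted p = 0.777 from limma), but 89.5% of the variation in that covariate was between the groups, and 2 degrees of freedom were left for the spread. The part of Rn45s in the difference and that of Sema3G cannot be told apart in these libraries. A change of the scaling alone did not lower the difference. After scaling by TMM factors Cd274 stood at 88.2 and 99.2 CPM with PBS and at 175, 235 and 279 CPM with Sema3G. Over the UMIs of listed genes other than Rn45s it stood at 95.4 and 101 CPM with PBS and at 194, 258 and 308 CPM with Sema3G.

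**Figure D3:**
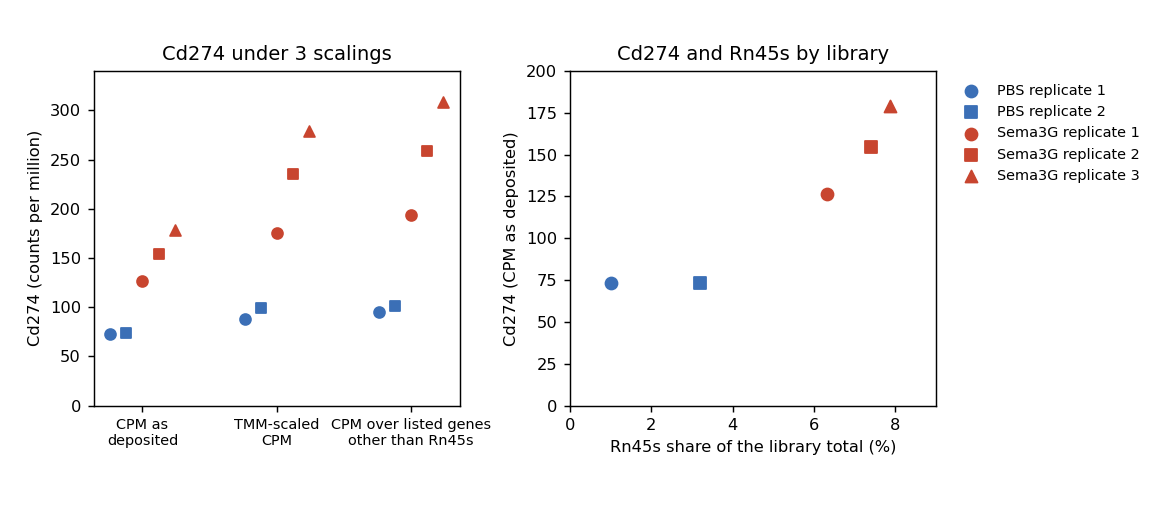
Left, the level of Cd274 in the 5 libraries under each of 3 scalings, in CPM, with blue for PBS and red for Sema3G. Right, the level as deposited against the share of Rn45s in the library total, in percent. Under each scaling the lowest Sema3G library is above the highest PBS library, and on the right the Sema3G libraries have both the higher Cd274 levels and the higher Rn45s shares.

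Pdcd1lg2 encodes PD-L2, the other PD-1 ligand, and is found mostly on dendritic cells and on macrophages given interleukin-4. It had 1 UMI in each PBS library and 0 in each Sema3G library. Neither group exceeded the limit of 3 counts, and therefore no fold change is given. No difference was detectable at this depth. The 2 genes are neighbours in the same orientation. In GRCm38 (GENCODE M21) Cd274 lies at chr19:29367455-29388095 on the plus strand and Pdcd1lg2 at chr19:29410919-29471161, with 22823 bases between them. The nearest listed gene before Cd274 is Plgrkt, which encodes a plasminogen receptor and is read from the other strand, with only 64 bases between the gene models. Plgrkt had 50 and 56 UMIs under PBS, against 42, 40 and 37 under Sema3G, all 3 below both PBS libraries (-0.55 ± 0.26 on the log2 scale, standard error, with a limma adjusted p of 0.232). The nearest listed gene after Pdcd1lg2 is Ric1, at 36 and 27 UMIs under PBS, against 15, 31 and 22 under Sema3G, or 19.8 and 14.5 CPM against 8.34, 13.99 and 10.1 CPM, again all below both PBS libraries (-0.63 ± 0.32 on the log2 scale, standard error, with a limma adjusted p of 0.272). Neither flanking gene was called. An antisense gene model, AC119228.1, overlaps an exon of Cd274 but not its last 1000 bases, where the reads of a 3′ kit fall.

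The sequence before the start site is shown for the PD-1 ligands, because these adjacent genes stood far apart in level, and for Lgals9 as the gene of the set whose window held an interferon-type motif. RefSeq (GRCm38.p6) gave a promoter for 7 of the 10 genes, all but Cd86, Cd40 and Sirpa. The stretches run 5′ to 3′ on the strand of the gene and stop before the first base of any exon in GENCODE M21. For Cd274 this leaves the 47 bases at chr19:29367391-29367437 that separate Plgrkt from the RefSeq start of Cd274. For Pdcd1lg2 it leaves the 250 bases at chr19:29410669-29410918, and for Lgals9 the 228 bases at chr11:78984947-78985174 on the minus strand. Capitals mark the motif.
Cd274: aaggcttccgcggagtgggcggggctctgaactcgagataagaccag
Pdcd1lg2: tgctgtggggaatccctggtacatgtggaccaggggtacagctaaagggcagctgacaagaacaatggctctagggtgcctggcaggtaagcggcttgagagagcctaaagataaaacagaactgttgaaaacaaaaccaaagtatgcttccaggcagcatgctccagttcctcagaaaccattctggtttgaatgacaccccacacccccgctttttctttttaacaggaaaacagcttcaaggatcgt
Lgals9: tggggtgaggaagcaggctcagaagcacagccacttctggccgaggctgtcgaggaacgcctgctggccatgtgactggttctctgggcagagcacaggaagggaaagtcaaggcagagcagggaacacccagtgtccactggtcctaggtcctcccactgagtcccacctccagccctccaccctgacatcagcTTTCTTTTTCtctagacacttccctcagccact
The 250 bases before each RefSeq start were searched on both strands for an interferon-stimulated element core (GAAA repeated after 2 free bases), a STAT site (TTCNNNGAA), an AP-1 site (TGANTCA), a kappaB core (GGG, 2 free bases, TTTCC) and a TATA box (TATAAA). Over the 32536 promoter windows of the table these were found in 2.98%, 7.04%, 6.73%, 1.40% and 12.3% of windows. The windows of Cd274, which also covers bases of Plgrkt, and Pdcd1lg2 held none of them. That of Lgals9 held the interferon-type core on the other strand at bases -55 to -46 from the start, and that of Cd80 held an AP-1 site at bases -42 to -36. The windows of Icosl, Cd276 and Cd47 held none. For Cd80, Cd276 and Cd47 the RefSeq starts lie inside the gene models, and cutting at exons leaves 0 bases of their windows. The AP-1 site of Cd80 thus lies inside its gene model and not before it. A match is a run of letters and not a measured site.

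The CD28 ligands were sparse. Cd80 had 5 and 4 UMIs under PBS, against 9, 11 and 9 under Sema3G, or 2.75 and 2.14 CPM against 5.00, 4.96 and 4.15 CPM. The groups did not overlap, at 2.44 ± 0.428 CPM (SD, n = 2) and 4.71 ± 0.483 CPM (SD, n = 3). The log2 fold change was 0.73 with a standard error of 0.43 and a 95% interval of -0.18 to 1.64 (adjusted p = 0.335 from limma). The pooled UMIs gave a ratio of 1.92 with a counting interval of 0.886 to 4.62, so that equal levels and a rise of the size seen in Cd274 are both inside the counting error. Cd86, whose protein is a usual activation marker of macrophages, had 12 and 8 UMIs under PBS, against 13, 11 and 12 under Sema3G. These are 6.59 and 4.28 CPM against 7.23, 4.96 and 5.53 CPM, and the groups overlapped. The log2 fold change of Cd86 was 0.11 with a standard error of 0.40 and a 95% interval of -0.72 to 0.95 (adjusted p = 0.896 from limma), or 1.08-fold with an interval of 0.606 to 1.93. Cd80 lies at chr16:38455561-38496335 on the plus strand and Cd86 at chr16:36603869-36666081 on the minus strand.

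Ratios within a library do not depend on how the libraries were scaled, and here they set Cd274 and Cd80 against Cd86. There were 11.1 and 17.1 Cd274 UMIs per Cd86 UMI under PBS, and 17.5, 31.1 and 32.3 under Sema3G. The lowest Sema3G ratio was close to the higher PBS ratio, and their counting intervals overlapped. The mean log2 ratio was 0.92 higher with Sema3G, and an exact two-sided permutation test over the libraries gave p = 0.2, the smallest p that 2 against 3 allows. With 1 library left out this difference ran from 0.60, without PBS replicate 1, up to 1.23, without PBS replicate 2. The Cd80 to Cd86 ratio was 0.417 and 0.500 with PBS and 0.692, 1 and 0.750 with Sema3G, a difference of 0.82 in mean log2 ratio (exact two-sided permutation p = 0.2). Every one of these Cd80 ratios rests on 4 to 13 UMIs of each gene, and their counting intervals overlap.

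Cd40 and Icosl, which join the macrophage to activated T cells, were likewise low. Cd40 had 22 and 12 UMIs under PBS, against 19, 12 and 7 under Sema3G, or 12.1 and 6.42 CPM against 10.6, 5.42 and 3.23 CPM. The groups overlapped, and Sema3G replicate 1 was 3.27 times Sema3G replicate 3, with a counting interval of 1.32 to 9.22. Its log2 fold change was -0.54 with a standard error of 0.44 and a 95% interval of -1.46 to 0.39 (adjusted p = 0.483 from limma). With 1 library left out this value ran from -0.95, without PBS replicate 2, to -0.13, without PBS replicate 1. Icosl had 0 and 21 UMIs under PBS, against 8, 7 and 1 under Sema3G. The PBS libraries therefore held both the lowest and the highest value, 0 CPM, which allows up to 1.65 CPM, and 11.2 CPM. PBS replicate 2 was 24.4 times Sema3G replicate 3 in CPM, with a counting interval of 3.92 to 1009, and 2.53 times Sema3G replicate 1, with an interval of 1.08 to 6.60. The log2 fold change of Icosl was -0.12 with a standard error of 0.78 and a 95% interval of -1.77 to 1.52 (adjusted p = 0.947 from limma), and its sign changed with the processing. Cd40 lies at chr2:165055627-165072948 and Icosl at chr10:78069302-78083913, both on the plus strand.

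Cd276, a B7 family member whose receptor is not settled, had 5 and 7 UMIs under PBS, against 3, 18 and 5 under Sema3G. The value of Sema3G replicate 2, 8.12 CPM, stood above the other 4 libraries, at 1.67 to 3.75 CPM. It was 3.52 times Sema3G replicate 3, with a counting interval of 1.26 to 12.1. The log2 fold change was 0.034 with a standard error of 0.53 and a 95% interval of -1.07 to 1.14 (adjusted p = 0.980 from limma), and without Sema3G replicate 2 it was -0.51. Cd276 lies at chr9:58524298-58555437 on the minus strand and shares bases with Gm10657 on the other strand.

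**Figure D4:**
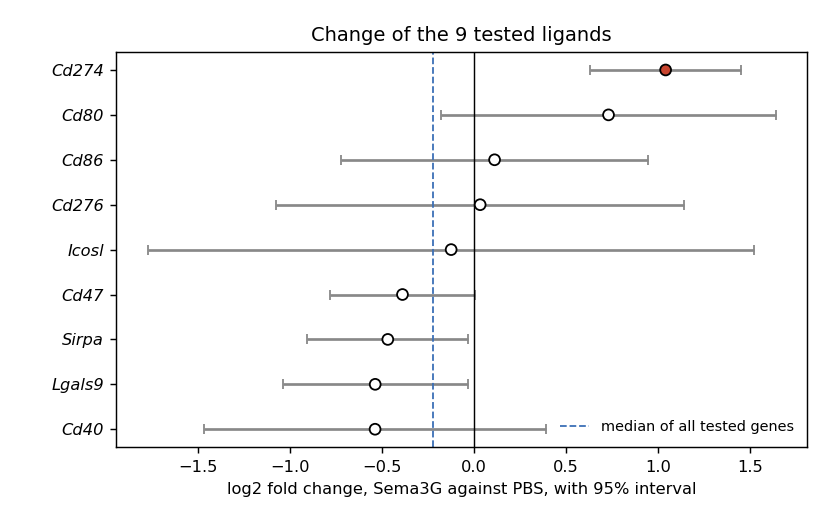
Log2 fold change of Sema3G against PBS with its 95% interval from limma on the horizontal axis, for the 9 tested genes of the set, with 0 as a solid line and the median of all tested genes, -0.22, as a dashed line. The interval of Cd274, 0.63 to 1.45, lies above both lines, and the intervals of the 5 sparse genes Cd80, Cd86, Cd276, Icosl and Cd40 reach across 0.

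Sirpa and Cd47, the receptor and the ligand that hold back phagocytosis, were the most abundant genes of the set. Sirpa had 1846 and 1407 UMIs under PBS, against 1304, 1335 and 1252 under Sema3G. In CPM this is 1014 and 753 against 725, 602 and 577, and each Sema3G library was under the lower PBS library. The PBS libraries differed from each other beyond counting error, at a ratio of 1.35 with an interval of 1.26 to 1.44. The means were 884 ± 185 CPM (SD, n = 2) and 635 ± 79.1 CPM (SD, n = 3), and the log2 fold change was -0.47 with a standard error of 0.21 and a 95% interval of -0.91 to -0.030 (adjusted p = 0.212 from limma). Cd47 had 886 and 713 UMIs under PBS, against 604, 744 and 686 under Sema3G, or 487 and 382 CPM against 336, 336 and 316 CPM. Again no Sema3G library reached a PBS library, and the PBS libraries differed at a ratio of 1.28 with an interval of 1.15 to 1.41. Its means were 434 ± 74.3 CPM (SD, n = 2) and 329 ± 11.3 CPM (SD, n = 3), and the log2 fold change was -0.39 with a standard error of 0.19 and a 95% interval of -0.78 to 0.0045 (adjusted p = 0.242 from limma).

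Neither gene passed the test, and both differences were near that of the median gene, from which the median distance of a gene was 0.29. Counted from the median of -0.22, Sirpa was at -0.24 and Cd47 at -0.16 on the log2 scale. After scaling by TMM factors, where the median of all genes was -0.023, the log2 fold changes were -0.25 for Sirpa and -0.17 for Cd47. Over the UMIs of listed genes other than Rn45s they were -0.18 and -0.098, and the groups overlapped in both genes. There Sema3G replicate 1 stood at 1115 CPM for Sirpa, above the 1041 CPM of PBS replicate 2, and Sema3G replicates 2 and 3 stood at 562 and 545 CPM for Cd47, above its 527 CPM. Without PBS replicate 1 they were -0.25 and -0.21 in CPM as deposited, with adjusted p of 0.640 and 0.682 from limma. Without PBS replicate 2 they were -0.68 and -0.56, with adjusted p of 0.121 and 0.151 from limma. Without Sema3G replicate 1 that of Sirpa was -0.57 with an adjusted p of 0.0783 from limma. Sirpa lies at chr2:129592835-129632228 and Cd47 at chr16:49800533-49915010, both on the plus strand. How reads that also match the near copies of Sirpa were counted is not stated in the sources used here, so that its count is uncertain to that extent.

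Lgals9 had 278 and 246 UMIs under PBS, against 261, 194 and 158 under Sema3G. The level was 153 and 132 CPM with PBS and 145, 87.6 and 72.8 CPM with Sema3G. Sema3G replicate 1 lay between the PBS libraries, while replicates 2 and 3 lay below both. Replicate 1 was 1.66 times replicate 2 (counting interval 1.37 to 2.01) and 1.99 times replicate 3 (counting interval 1.63 to 2.44). The means were 142 ± 14.9 CPM (SD, n = 2) and 102 ± 38.2 CPM (SD, n = 3), and the log2 fold change was -0.54 with a standard error of 0.24 and a 95% interval of -1.04 to -0.034 (adjusted p = 0.212 from limma). Without Sema3G replicate 1 the log2 fold change was -0.82 with an adjusted p of 0.0258 from limma, and without Sema3G replicate 3 it was -0.33 with an adjusted p of 0.612 from limma. It was -0.32 with TMM scaling, -0.26 with edgeR and -0.25 over the UMIs of listed genes other than Rn45s, and not called in any of these. Lgals9 lies at chr11:78962974-78984946 on the minus strand.

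The make-up of the set can also be given as shares of the UMIs of all 10 genes. Cd274 made up 4.17% and 5.36% of these UMIs under PBS and 9.27%, 12.8% and 15.4% under Sema3G. The share of Sirpa was 57.9% and 55.0% with PBS and 53.3%, 49.9% and 49.7% with Sema3G. That of Cd47 was 27.8% and 27.9% with PBS and 24.7%, 27.8% and 27.2% with Sema3G, a narrower span. Shares of a whole depend on one another, and no test was run on them. Per Cd47 UMI there were 0.15 and 0.192 Cd274 UMIs with PBS and 0.376, 0.460 and 0.566 with Sema3G. Per Sirpa UMI there were 0.0720 and 0.0974 with PBS and 0.174, 0.256 and 0.310 with Sema3G. The mean log2 ratios were 1.44 and 1.52 higher with Sema3G, in each case with an exact two-sided permutation p of 0.2, the smallest possible. These last ratios were chosen after the values had been seen.

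The genes whose levels followed those of Cd274 most closely over the 5 libraries were Nktr, Copb1, Atrx, Cep350 and Prpf38b. They were chosen by the root mean square difference of log2(CPM + 1), centred on the mean of each gene, which ran from 0.0710 to 0.0811 in these genes. Likeness was computed for the 4591 other genes that averaged 20 CPM or more, of which 56 were within 0.15. Nktr, a cyclophilin-type protein, had 90 and 99 UMIs under PBS, against 173, 244 and 257 under Sema3G. Copb1, a subunit of the coat of vesicles of the early secretory pathway, had 50 and 54 UMIs under PBS, against 100, 142 and 164 under Sema3G. Atrx, a chromatin remodeller, had 186 and 223 UMIs under PBS, against 338, 510 and 608 under Sema3G. In all 3, as in Cd274, the highest level was that of Sema3G replicate 3 and no Sema3G library reached down to a PBS library. Because the genes were chosen by likeness to Cd274 over these same 5 libraries, this pattern follows from the choice and is not a separate result.

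The partner proteins differed widely in level. Of 7 genes for partner receptors, Pdcd1, which encodes PD-1, and Cd40lg had no UMI in any library, which allows up to 1.35 to 1.67 CPM. Ctla4 had 0 to 2 UMIs per library, Icos 0 to 5 and Havcr2, which encodes TIM-3, 2 to 8. Cd28 was detected, at 15 and 17 UMIs under PBS, against 20, 6 and 13 under Sema3G, with overlapping groups (log2 fold change -0.51, adjusted p = 0.516 from limma). Thbs1, a secreted ligand of CD47, was abundant, at 1164 and 1869 UMIs under PBS, against 1150, 2736 and 2308 under Sema3G, also with overlap (log2 fold change 0.24, adjusted p = 0.620 from limma). Of the 7 genes 4 were tested and none passed, with a median log2 fold change of 0.023. The T cell markers Cd3e, Cd3g and Cd8a were at 0 in every library. Of the others, Cd4 had 5 to 18 UMIs in each library, while Cd2, Lck and Cd3d together came mostly from PBS replicate 2 and Sema3G replicate 1, with at most 6 UMIs of a gene in a library. The 7 T cell markers summed to 9.10 to 10.4 CPM with PBS and 2.30 to 13.9 CPM with Sema3G. The B cell markers Ms4a1, Cd79a and Pax5 were also at 0 in every library, while Cd79b had 5 and 5 UMIs under PBS, against 1, 0 and 1 under Sema3G (log2 fold change -1.50, limma adjusted p = 0.152), and its part in the results above was not tested. Neutrophil markers summed to 115 to 167 CPM with PBS and 103 to 132 CPM with Sema3G, and stromal markers to 10.7 to 28.0 CPM and 11.7 to 21.2 CPM. Nearly all of the neutrophil sum was S100a8, at 113 and 165 CPM with PBS and 102, 130 and 129 CPM with Sema3G. S100a9 had 2 to 4 UMIs per library, Mpo and Ltf at most 1, and Elane 0.

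Among 26 other costimulatory and inhibitory surface proteins, 16 were tested, none passed, and 4 were above 0 and 12 below, with a median log2 fold change of -0.36, or -0.14 counted from the median of all genes. Lgals3, which encodes galectin-3, and Pirb, an inhibitory receptor for MHC class I, were the most abundant. Lgals3 had 4114 and 3194 UMIs under PBS, against 3045, 3241 and 2942 under Sema3G, and Pirb had 1368 and 1391 against 1069, 1201 and 1167. In CPM both were below both PBS libraries in all 3 Sema3G libraries, with log2 fold changes of -0.39 (adjusted p = 0.340 from limma) and -0.42 (adjusted p = 0.213 from limma). The B7 family gene Vtcn1, the TNF family genes Tnfsf4, Tnfsf18 and Cd70, and Tnfrsf14 had no UMI in any library.

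Of 13 genes known to regulate Cd274 or its protein PD-L1, all were tested and none passed. Of them 4 were above 0 and 9 below, and the median log2 fold change was -0.30, or -0.077 counted from the median of all genes. The most abundant were Hif1a, the hypoxia-inducible factor, with 0.16 (adjusted p = 0.672 from limma), and Jak1, a kinase of the interferon receptors, with -0.37 (adjusted p = 0.268 from limma). The smallest adjusted p of the list from limma, 0.0851, was that of Rela, the transactivating subunit of NF-kappaB, with a log2 fold change of -0.76 and the groups apart. Of the interferon arm, Irf1 was at -0.54 and Irf2 at 0.27, and neither passed. Rela, Irf1 and Irf2 were named after their values had been seen.

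The 8 genes of CD40 signalling were all tested and all below 0, with none past the adjusted p and a median log2 fold change of -0.42. Counted from the median of all genes this was -0.19, and with TMM scaling 2 of the 8 were above 0 and 6 below. Nfkb2 and Relb, which encode the NF-kappaB subunits of the non-canonical pathway downstream of CD40, were the most abundant, at -0.47 (adjusted p = 0.201 from limma) and -0.48 (adjusted p = 0.217 from limma). Traf2, an adaptor of CD40 named after its value had been seen, had the lowest value of the list, -1.27 with an adjusted p of 0.0868 from limma. In the axis of CD47 and SIRPA, 7 genes were tested and none passed, with 3 above 0 and 4 below and a median of -0.19, whose sign turned with TMM scaling to give 0.035. Fyb, an adaptor that binds SKAP2, was the most abundant, at a log2 fold change of 0.27 (limma adjusted p = 0.472), followed by Lrp1, a receptor that promotes uptake, at -0.54 (adjusted p = 0.115 from limma). Ptpn11, the phosphatase SHP-2 that SIRPA recruits, was at 0.60 (adjusted p = 0.158 from limma) and was named after its value had been seen. Over the 61 genes of these 5 lists, 48 were tested and limma called none. Of the 48, 13 had an unadjusted p under 0.05 from limma (27.1%, against 21.1% of all tested genes). All but Ptpn11 of the 13 had lower levels in the Sema3G group. Over all tested genes, with no limit on p, 67.5% were below 0, and the share under the same limit is not given here. The quasi-likelihood test of edgeR called 1 of the listed genes, Ptpn11, and DESeq2 called 0, among the genes that their filters on low counts left with an adjusted p.

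**Figure D5:**
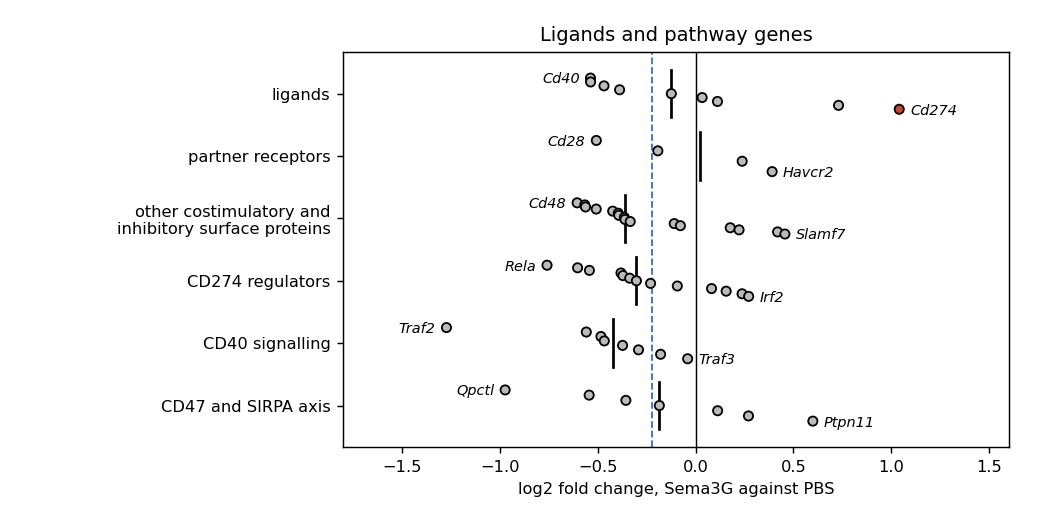
Log2 fold change of Sema3G against PBS on the horizontal axis for the tested genes of the set (top row) and of 5 lists of related genes, with 1 point a gene, short vertical lines for the medians of the rows and the median of all tested genes, -0.22, as a dashed line. Cd274, in red at 1.04, is the called gene, and the row of CD40 signalling lies wholly below 0 with a median of -0.42, while with TMM scaling 2 of its 8 genes are above 0.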

How the data were processed

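RNA-seq of 5 samples of BMMs was used, 2 with PBS and 3 with Sema3G, grouped by the treatment in the labels. Libraries were made with the QuantSeq 3′ FWD kit with UMIs, and the authors mapped the reads to mm10 and counted UMIs with Strand NGS. EdgeR 3.12 is named in the submitters' processing notes, while its test, the annotation used and filters on low counts are not stated. The authors deposited CPM values, which are whole multiples of 1 step per library (100% of values within 0.01 of a whole count), so that UMI counts and library totals were recovered. The deposited p-values and q-values of the authors' own comparison were not used.

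Log2(CPM + 1) was modelled in R 4.3.3 with limma 3.58.1, using its mean-variance trend. The 10088 genes that averaged 1 CPM or more were tested, and p-values were adjusted by Benjamini-Hochberg to a limit of 0.05. The spread was estimated from all 5 libraries, and intervals are at 95%. Counting intervals of ratios are exact, from the UMI counts. edgeR (4.0.16, quasi-likelihood test) and DESeq2 (1.42.0) on the recovered counts, other pseudocounts, filters and scalings, the replicate number as a block, the Rn45s share as a covariate and fits without each library were alternatives. The scripts were tested on simulated data. Gene models were those of GENCODE M21. Of the gene rows, 27 carried dates in place of symbols, and none is named.

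The members and the lists of related genes and markers were chosen with earlier results of these data known. Named are all 10 genes, the genes of each list past the adjusted p or otherwise its 2 most abundant tested genes, the 5 genes most like Cd274 among those averaging 20 CPM or more, and the nearest listed genes on either side of Cd274 and Pdcd1lg2. Every other gene named was named after its value had been seen. Each library had 1283029 to 1487137 UMIs on listed genes, and 3 counts are worth 1.35 to 1.67 CPM of the library totals. Sema3G replicates 2 and 3 were the most alike (chi-square per degree of freedom 1.77 over 7918 genes, against 6.57 to 29.6 for the other pairs), beyond sampling noise, and were counted as separate samples.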

Additional observations from a re-analysis of the deposited data

How the results depend on the processing

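Cd274 was higher with Sema3G under all 16 alternatives, with log2 fold changes from 0.48 to 1.33, and past the adjusted p from limma, edgeR or DESeq2 in 12 of them, with adjusted p from 4.87e-05 to 0.777. It was not past the limit with the Rn45s covariate (0.48), with Sema3G replicates 2 and 3 summed (0.98) and without either of these replicates, and fits without 1 library gave 0.92 to 1.17. The number of genes of the set that were called was 0 with the covariate and 0 with the summed library, and 0 to 2 in fits without 1 library, where the second was Lgals9 without Sema3G replicate 1. Over all genes, 182 were called, against 108 with no filter, 350 with TMM scaling (347 higher and 3 lower, where the limma fit in CPM as deposited gave 160 and 22), 498 over listed genes other than Rn45s (496 higher and 2 lower), 383 with edgeR (380 higher and 3 lower), 19 with the summed library and 27 to 710 without 1 library (99 without PBS replicate 1, 710 without Sema3G replicate 1, where most were lower, with 270 higher and 440 lower, 27 without Sema3G replicate 2 and 32 without Sema3G replicate 3). DESeq2 called 234 higher and 1 lower. Genes of the related lists, of which 0 were called, numbered 1 over listed genes other than Rn45s and 1 with edgeR (Ptpn11 in both), 3 with the covariate and 0 to 4 without 1 library. With the replicate number as a block, 573 genes were called (298 higher and 275 lower), 4 list genes among them (Vsir, Rela, Cmtm6 and Lrp1), and Cd274 stood at 0.92 with an adjusted p of 4.87e-05 from limma. The labels do not say that a number marks a shared culture, only 2 pairs exist (correlations of deviations 0.173 and 0.111), and the fit has 1 residual degree of freedom and gains nothing from Sema3G replicate 3, which has no partner.

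Signs changed in genes that were not called. With the covariate the log2 fold change was 2.32 for Cd40, -1.28 for Cd276, 0.22 for Cd47, 0.57 for Sirpa and 0.92 for Lgals9. Icosl was at 0.93 with a pseudocount of 0.1, 0.046 with TMM scaling, 0.13 over listed genes other than Rn45s, 0.44 with the replicate block and 0.16 with the summed library, and at -1.93 to 1.68 without 1 library. Cd276 was at -0.017 with a pseudocount of 0.1, -0.047 with the summed library and -0.51 to 0.38 without 1 library, and Cd86 at -0.15 to 0.37 without 1 library. The cause of these shifts was not tested. Alternatives that filtered out a gene gave no value for it. With 2 libraries against 3, genes at a few UMIs per library could show only large differences.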
